A study of Mus musculus with 4 samples.

Results

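Integrins and laminins are the receptors and the matrix proteins that hold skin cells to their basement membranes, and the mRNAs of their subunits were measured in mouse dermal cells. Every probe set whose single gene symbol names an integrin α or β chain, or a laminin α, β or γ chain, was taken. This gave 34 genes, 24 of integrins and 10 of laminins, of the 18193 genes with a single symbol on the array. They had 73 of its 45101 probe sets. The 34 genes were divided by where their products are best known into 5 epithelial integrins, 11 mesenchymal and vascular integrins, 8 leukocyte and platelet integrins, 4 epithelial laminins and 6 mesenchymal and vascular laminins. *Itga11* and *Itgad* had no probe set with a single symbol and were not analysed here.

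The samples were dermal cells of C57BL/6 female mice, aged 10 weeks by the sample labels and 8 to 12 weeks by the series' design text. Each of 4 conditions had 1 Affymetrix array. The virgin array came from abdominal skin of virgin mice that received the vehicle DMSO, the dorsal array from the back skin of pregnant mice at 15 days post coitum (dpc) that received DMSO, and the abdominal array from the belly skin of such mice, also with DMSO. The PP2 array came from abdominal skin of 15 dpc mice that received PP2, an inhibitor of Src family kinases. Injections were intradermal, 2 a day for 4 days, and began at 12 dpc in the pregnant mice. The titles give 15 dpc and the descriptions of the pregnant samples 16 dpc. The sources used here do not say how many mice contributed RNA to an array. All cells came from skin stripped of subcutaneous fat and digested with enzymes, so the transcripts are those of cells that had passed through the dissociation.

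An integrin is a pair of 1 α and 1 β chain that spans the membrane, binding matrix outside the cell and the cytoskeleton inside it. A laminin is a trimer of an α, a β and a γ chain and forms the sheet on which basement membranes are built. In the epidermis the α6β4 integrin anchors basal keratinocytes through hemidesmosomes to a laminin that holds the products of *Lama3* and *Lamb3*, while β1 integrins serve focal adhesions of nearly all adherent cells and β2 integrins serve leukocytes. Src family kinases act downstream of integrins at focal adhesions.

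The signal of a probe set is a brightness in arbitrary units that the authors had scaled to a common level on all arrays, and a detection call says whether it was present above its mismatch probes. Levels were compared within a probe set across arrays, never between probe sets. A gene with several probe sets was described first by the one with the highest mean log2 signal. With 1 array per condition there were no replicates, so no difference could be set against a replicate error and no test was made. A gene was called higher or lower when the signals of 2 arrays differed by more than 2-fold and the brighter was present, and a fold is written as "at least" when the dimmer of the arrays lacked a present call. The abdominal array was set against each of the other 3 arrays, so these comparisons share an array and are not independent. In bulk RNA, fewer cells of a type and less RNA per cell cannot be told apart.

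Between 58.4% and 59.7% of probe sets were present on each array. The 3′ over 5′ signal ratio of the *Gapdh* control probe sets, which rises as RNA is degraded, was 2.51 on the virgin, 5.84 on the PP2, 2.97 on the dorsal and 1.41 on the abdominal array. That of *Actb* was 2.64, 2.70, 4.14 and 2.03 in the same order, so that PP2 was highest by *Gapdh*, dorsal by *Actb*, and the abdominal array lowest by both. The labelled dermis carried its defining transcripts, with 12 of 12 fibroblast markers and 11 of 11 endothelial markers present on all 4 arrays. Keratinocyte markers, 12 of 12, were present on all 4 arrays too, and their summed signal was 95099 on the virgin, 80336 on the PP2, 153894 on the dorsal and 128925 on the abdominal array. The 11 markers of the hair matrix and sheath were all present on the abdominal array, where their sum was 16091, and summed to 570 on the virgin, 2107 on the PP2 and 782 on the dorsal array. The part of these cell types in the values below was not tested beyond the marker levels given beside them.

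By their representative probe sets, 24 of the 34 genes were present on all 4 arrays, 6 on some (*Itga2*, *Itgb3*, *Itgax*, *Itgb2*, *Lama1* and *Lama5*), and 4 on none (*Itgb6*, *Itgal*, *Itgam* and *Itgb7*). The receptors of the epidermal and mesenchymal matrix were thus largely detected, and over all probe sets the 3 genes present on no array encode the αL, αM and β7 chains of leukocytes. Among the 24 genes present throughout, the highest array exceeded the lowest by a median of 1.62-fold, from 1.24-fold for *Lamb1* to 2.86-fold for *Itgae*. 9 of these 24 genes, 37.5%, spanned more than 2-fold. Over all 11086 genes present on all arrays the median span was 1.51-fold, with quartiles of 1.31 and 1.85, and 19.4% spanned more than 2-fold.

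**Figure D1:**
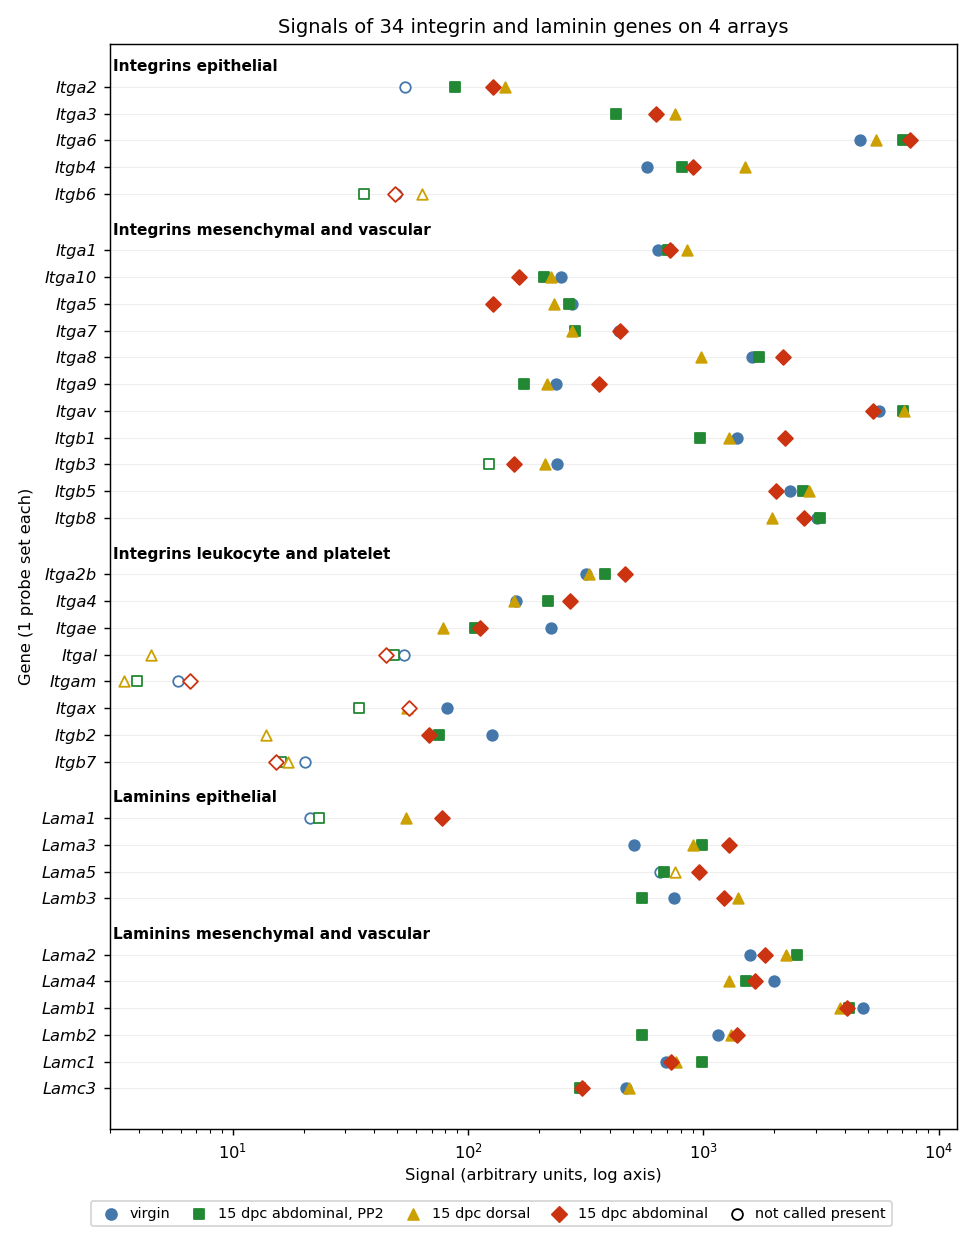
Signals (arbitrary units, log axis) of the representative probe set of each of the 34 genes on the 4 arrays, grouped by the cells that the chains are best known from, with open symbols for signals that lacked a present call. The 4 signals of a gene mostly lie close together, with a median span of 1.62-fold among the 24 genes present on all arrays, and the open symbols gather among the leukocyte integrins.

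The abdominal array had the highest signal for 11 of the 30 detected members (36.7%, against 22.1% of all detected genes). The virgin array was highest for 8 (26.7%, against 21.6%), the dorsal array for 8 (26.7%, against 27.7%) and the PP2 array for 3 (10.0%, against 28.6%). The 3 genes highest with PP2 were *Itgb8*, *Lama2* and *Lamc1*. That count rose to 7 when the arrays were scaled to one median of present signals, so the count depended on the scaling. The share of all genes was not computed under that scaling, so the 7 cannot be set beside it.

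Against the virgin array, 3 of 30 members (10.0%) were called higher on the abdominal array, *Itga2*, *Lama1* and *Lama3*, while 3.41% of all genes were. 1 member, *Itga5*, was called lower (3.33%, against 3.55% of all genes). Against the PP2 array, 5 of 29 members (17.2%) were called higher, *Itga9*, *Itgb1*, *Lama1*, *Lamb2* and *Lamb3*, beside 4.89% of all genes, and *Itga5* alone was called lower (3.45%, against 3.74%). Against the dorsal array, 2 of 30 members (6.67%) were called higher, *Itga8* and *Itgb2*, beside 5.25% of all genes, and 0 were called lower, beside 4.96%. The 12 calls thus fell on 10 genes, of which *Itga5* and *Lama1* had 2 each. The median log2 ratio over the members was 0.12 against virgin, 0.16 against PP2 and 0.09 against dorsal, where that over all genes was 0.02, 0.00 and 0.04. Only 1, 4 and 1 of the higher calls, in the same order, were of members present on both arrays, and the other higher calls rested on a dimmer array without a present call.

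**Figure D2:**
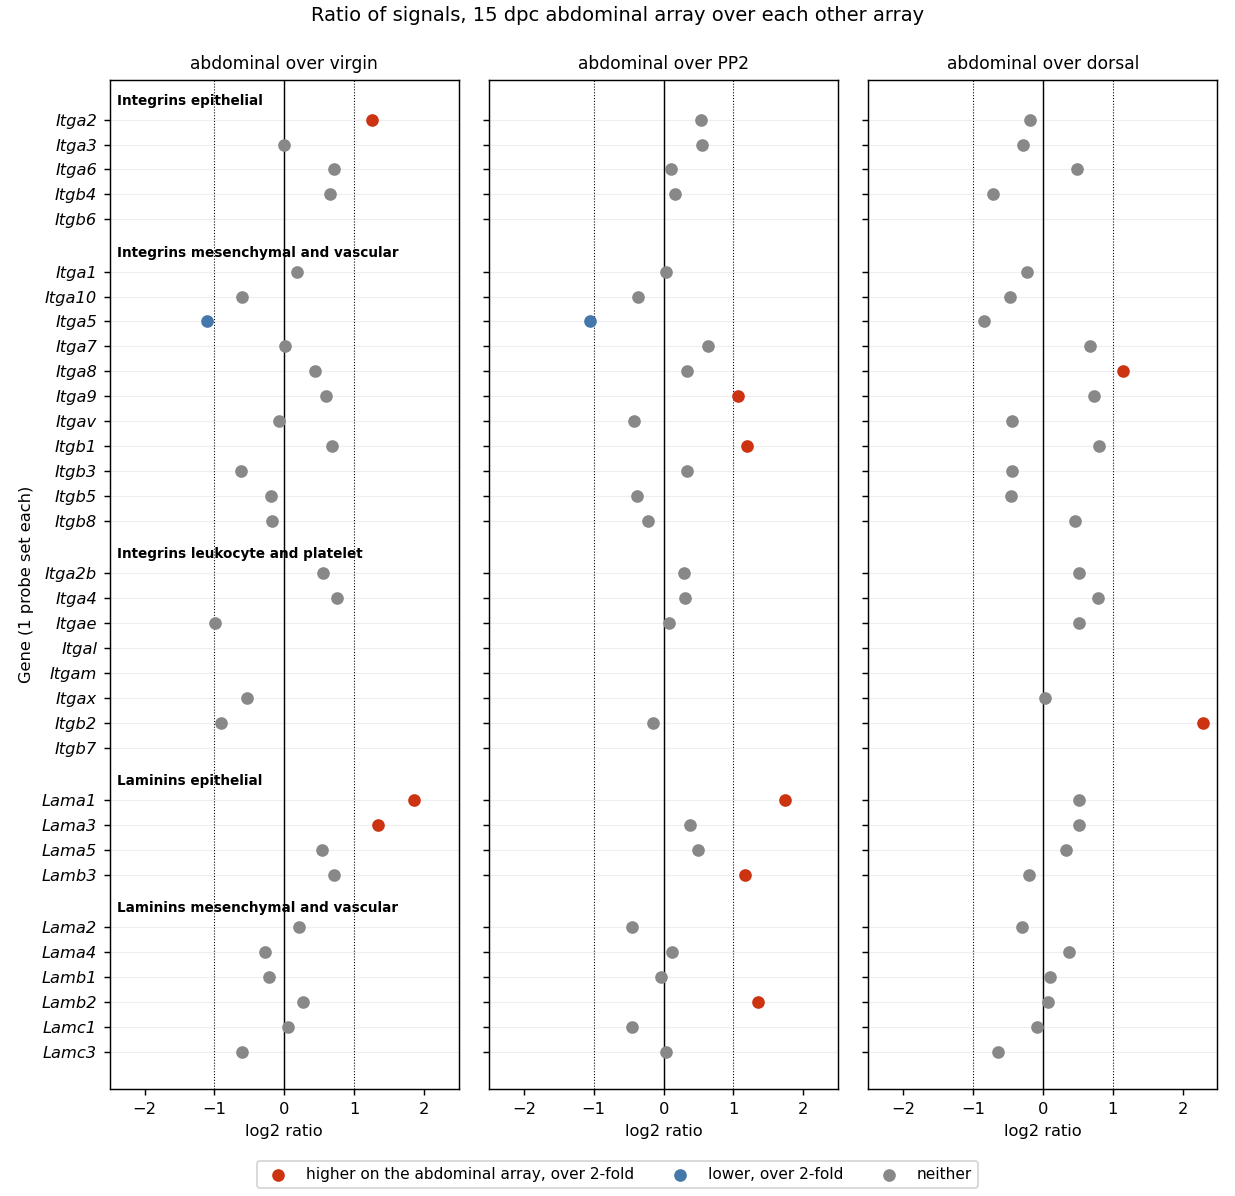
Log2 ratio of the signal on the abdominal array to that on the virgin, PP2 and dorsal arrays for each member present on at least 1 of the 2 arrays, with dotted lines at a 2-fold difference. Red points (3, 5 and 2 genes) were called higher on the abdominal array and blue points (1, 1 and 0 genes) lower, and genes without a point were present on neither array.

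The epithelial integrins had their lowest signals on the virgin or PP2 array. Against virgin their median log2 ratio was 0.68 over 4 detected genes, against PP2 0.35 and against dorsal -0.23. *Itga6*, the α chain that pairs with β4 in hemidesmosomes and with β1 elsewhere, gave signals of 4635 on the virgin, 7031 on the PP2, 5405 on the dorsal and 7571 on the abdominal array. The abdominal signal was 1.63-fold above virgin, 1.08-fold above PP2 and 1.40-fold above dorsal, and none of these passed 2-fold. A further probe set of *Itga6* put the dorsal array highest, with 5253, 4229, 6437 and 6074 in the same order of arrays, so the sign against dorsal depended on the probe set.

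*Itgb4*, whose product is found as the partner of α6 alone, gave 574 on the virgin, 811 on the PP2, 1495 on the dorsal and 906 on the abdominal array. Dorsal skin was therefore the high sample, 1.65-fold above abdominal, and virgin the low one, with the abdominal array 1.58-fold above it and 1.12-fold above PP2. The highest and lowest of these signals differed by 2.60-fold. The dorsal array was thus highest for *Itgb4* and for the second probe set of *Itga6*, and the abdominal array for the representative one of *Itga6*.

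*Itga2*, the collagen-binding chain of keratinocytes and platelets, was not present on the virgin array, at a signal of 53.7, and was present at 88.1 on the PP2, 144 on the dorsal and 127 on the abdominal array. The abdominal signal was at least 2.37-fold above virgin and 1.44-fold above PP2, and the dorsal signal was 1.13-fold above it. *Itga3*, another laminin receptor chain of keratinocytes, gave 629, 427, 758 and 626 on the virgin, PP2, dorsal and abdominal arrays, so that virgin and abdominal skin had nearly equal signals and the PP2 array was 1.47-fold below abdominal. *Itgb6*, a chain that epithelia express on injury and that activates latent TGF-β with αv, was not present on any array by its representative probe set, and its other probe set was present on the abdominal array alone, at 32.7.

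The epithelial laminins had the highest median ratio of the 5 groups against virgin and PP2, and the leukocyte and platelet integrins had it against dorsal (log2 0.52). All 4 were higher on the abdominal than on the virgin and PP2 arrays, with median log2 ratios of 1.03 and 0.83, and 0.42 against dorsal. *Lama3*, the α chain of the laminin under hemidesmosomes, gave 505 on the virgin, 986 on the PP2, 899 on the dorsal and 1280 on the abdominal array. The virgin array was the low one: the abdominal signal was 2.53-fold above it, a log2 ratio of 1.34, and 1.30-fold above PP2 and 1.42-fold above dorsal.

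*Lamb3*, the β chain of the same laminin, gave 748 on the virgin, 549 on the PP2, 1401 on the dorsal and 1223 on the abdominal array. Both arrays of vehicle-treated pregnant skin were high and the PP2 array was lowest. The abdominal signal was 2.23-fold above PP2 (log2 1.16), 1.64-fold above virgin and 1.15-fold below dorsal. Virgin skin thus had the lowest *Lama3* and PP2-treated skin the lowest *Lamb3* signal.

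*Lama1*, an α chain best known from embryonic basement membranes, was not present on the virgin and PP2 arrays, at 21.2 and 23.2, and was present at 54.3 on the dorsal and 77.4 on the abdominal array. The abdominal signal was at least 3.64-fold above virgin, at least 3.33-fold above PP2 and 1.42-fold above dorsal. These are dim signals, and both calls were lost when signals were raised to a floor of 50. *Lama5*, the α chain of laminin-511 found under most epithelia, gave 677 with PP2 and 955 on the abdominal array, 1.41-fold higher, and was not present on the virgin and dorsal arrays, at 655 and 759. Another of its probe sets was present throughout at 414, 455, 480 and 587 on the virgin, PP2, dorsal and abdominal arrays, with the same array highest.

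Keratinocyte markers moved in the same comparisons. Against virgin, 4 of the 12 were called higher on the abdominal array (*Trp63*, *Dsc3*, *Dsg1a* and *Sfn*), against PP2 4 (*Krt5*, *Krt1*, *Dsg1a* and *Sfn*), and against dorsal 0. The shares of all genes called higher were 3.41%, 4.89% and 5.25% in the same order. *Trp63*, the transcription factor of basal keratinocytes, gave 2997 on the virgin, 3871 on the PP2, 4685 on the dorsal and 5999 on the abdominal array. The 12 markers as a list differed from it, with a summed signal of 153894 on the dorsal and 128925 on the abdominal array. Their median log2 ratio was 0.57 against virgin, 0.69 against PP2 and -0.22 against dorsal. The share of the epithelial integrin and laminin ratios that goes with these markers was not tested.

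Other parts of the hemidesmosome and its anchoring complex were described from a list of 9 genes, all present on all arrays. Against virgin 0 of them were called in either direction, against PP2 1 was called higher (*Krt5*) and 1 lower (*Frem2*), and against dorsal 0 were higher and 3 lower (*Dst*, *Frem2* and *Fras1*). The shares of all genes called higher and lower were 4.89% and 3.74% against PP2, and 5.25% and 4.96% against dorsal. *Frem2* and *Fras1* encode matrix proteins that join epidermis to dermis in the embryo. *Frem2* gave 314 on the virgin, 1120 on the PP2, 1866 on the dorsal and 530 on the abdominal array, and *Fras1* 190, 308, 569 and 231 in the same order, so that both were highest in dorsal skin, as *Itgb4* was. *Dst*, which encodes the epithelial plakin that ties keratin to α6β4 among other isoforms, gave 6162, 5325, 11409 and 5513, and was 2.07-fold higher on the dorsal than on the abdominal array. *Krt5*, the keratin of basal cells, gave 13760, 8098, 19184 and 16946, and was lowest with PP2, as *Lamb3* was.

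**Figure D3:**
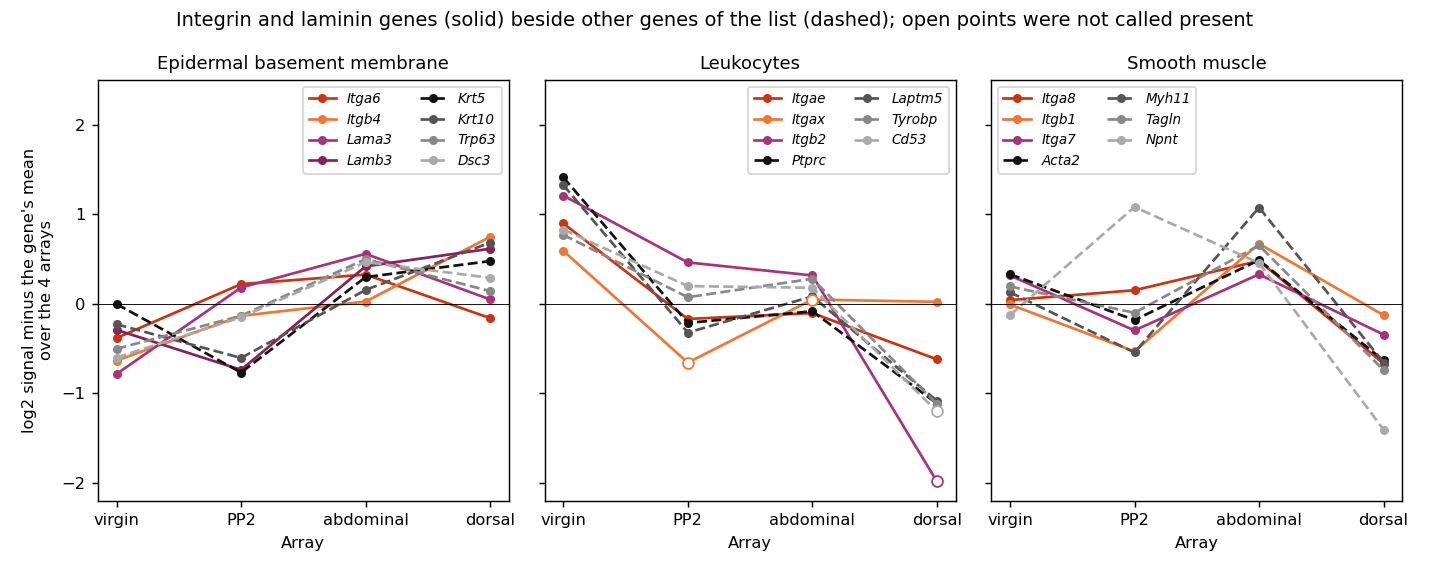
Log2 signal minus the mean of the gene over the 4 arrays, for integrin and laminin genes (solid lines) beside chosen genes of marker and ligand lists (dashed lines), for the epidermal basement membrane, leukocytes and smooth muscle. The lines join 1 array per condition and are not a time course, and open points were not called present. *Itgb2* and the leukocyte markers shown lie lowest on the dorsal array, as do *Itga8* and the dashed genes of the smooth muscle panel. *Itgb1* lies lowest on the PP2 array. Some markers of these lists that are not shown, such as *Lcp1* and *Des*, were lowest on the abdominal array.

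*Itgb1* encodes the β chain shared by the collagen, laminin and fibronectin receptors of most cells, and it was highest on the abdominal array. Its signals were 1389 on the virgin, 966 on the PP2, 1279 on the dorsal and 2223 on the abdominal array. The abdominal signal was 2.30-fold above PP2 (log2 1.20), 1.74-fold above dorsal and 1.60-fold above virgin. A second bright probe set gave 1384, 761, 1109 and 2203 in the same order, with folds of 1.59 over virgin, 2.89 over PP2 and 1.99 over dorsal, so both bright probe sets placed the PP2 array lowest and the abdominal array highest. 3 dimmer probe sets of *Itgb1* did not share this order. One, at 75.3 (not present), 80.0, 142 and 194, and another, at 4.02 (not present), 22.2, 23.5 and 35.2, placed virgin lowest and the abdominal array highest, at least 2.58-fold and at least 3.29-fold above virgin. The other, at 19.5, 23.0, 16.9 and 18.6, differed little between arrays.

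The α chains that pair with β1 did not follow it as a group. *Itga9*, a receptor chain for tenascin-C and VCAM-1, had the same highest and lowest arrays, with 237 on the virgin, 172 on the PP2, 217 on the dorsal and 360 on the abdominal array, 2.10-fold above PP2 (log2 1.07), 1.66-fold above dorsal and 1.52-fold above virgin. Its other probe set gave 219, 201, 229 and 229, a 1.14-fold difference from PP2, and the call was lost when the arrays were scaled to one median or by quantiles. *Itga5*, the α chain of the classical fibronectin receptor, ran the other way, with 276 on the virgin, 267 on the PP2, 232 on the dorsal and 128 on the abdominal array. The abdominal array stood apart from the other 3, 2.15-fold below virgin (log2 -1.11), 2.08-fold below PP2 (log2 -1.06) and 1.80-fold below dorsal (log2 -0.85). The further probe sets of *Itga5* were present on 0 arrays, and their lowest signals were on the PP2 or dorsal array. The pattern of *Itga5* therefore rests on its representative probe set alone.

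*Itga8*, whose product with β1 binds nephronectin and is known from smooth muscle and the hair follicle's arrector pili muscle, gave 1601 on the virgin, 1728 on the PP2, 980 on the dorsal and 2169 on the abdominal array. Dorsal skin was the low sample, with the abdominal signal 2.21-fold above it (log2 1.15), and 1.35-fold above virgin and 1.26-fold above PP2. A dim probe set of *Itga8* was present on the abdominal array alone, at 130, and was at least 8.08-fold below it on the dorsal array. With PP2 this dim probe set was at 45.7, at least 2.84-fold below abdominal, so the difference from PP2 depended on the probe set. Some smooth muscle markers went in the same direction. *Acta2* gave 14744, 10345, 7569 and 16453 on the virgin, PP2, dorsal and abdominal arrays, *Myh11* 1923, 1207, 1117 and 3706, and *Tagln* 4874, 3976, 2553 and 6695. Of the 12 genes in the smooth muscle and pericyte list, 3 were called higher against dorsal (these 3) and 3 lower (*Cspg4*, *Kcnj8* and *Abcc9*, of pericytes), beside 5.25% and 4.96% of all genes. The summed signal of the list was 41345 on the dorsal and 55762 on the abdominal array. Its median log2 ratio against dorsal was -0.10 over 11 detected genes, so the list as a whole did not share the direction of *Itga8*. Whether the number of muscle cells sets the *Itga8* level was not tested.

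The remaining mesenchymal and vascular integrins differed by less than 2-fold. *Itga7*, the laminin receptor chain of muscle, gave 436, 285, 276 and 440 on the virgin, PP2, dorsal and abdominal arrays, with the abdominal signal 1.54-fold above PP2 and 1.59-fold above dorsal. *Itga1*, a receptor chain for collagen IV, gave 640, 704, 849 and 724, and *Itga10*, a collagen receptor chain of cartilage, 248, 210, 226 and 164. *Itga10* was thus lowest on the abdominal array, 1.52-fold below virgin.

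The αv integrins bind vitronectin, fibronectin and the latent form of TGF-β. *Itgav*, their shared α chain, gave 5577 on the virgin, 7056 on the PP2, 7118 on the dorsal and 5259 on the abdominal array. *Itgb5*, a partner, gave 2332, 2646, 2795 and 2038 in the same order, and both chains were highest on the dorsal and lowest on the abdominal array, by 1.35-fold and 1.37-fold. *Itgb8*, the partner that serves TGF-β activation, gave 3043, 3113, 1949 and 2677 and was lowest on the dorsal array. *Itgb3*, the partner of endothelial cells, platelets and osteoclasts, gave 239 on the virgin, 212 on the dorsal and 156 on the abdominal array and was not present with PP2, at 123. By these probe sets 0 of the 4 genes was called in any comparison. A dim probe set of *Itgav*, present on all 4 arrays, gave 120 on the virgin, 61.2 on the PP2, 187 on the dorsal and 65.9 on the abdominal array, and was 2.84-fold lower on the abdominal than on the dorsal array.

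Among the leukocyte and platelet integrins, *Itgb2*, the β chain common to the αL, αM and αX receptors, gave 126 on the virgin, 75.1 on the PP2 and 67.9 on the abdominal array and was not present on the dorsal array, at 13.8. It was at least 4.91-fold higher on the abdominal than on the dorsal array and 1.86-fold lower than on the virgin array. The call against dorsal was lost with a signal floor of 50. *Itgae*, the α chain of T cells and dendritic cells that binds E-cadherin, gave 224 on the virgin, 107 on the PP2, 78.3 on the dorsal and 112 on the abdominal array. The virgin array was the high one, 1.99-fold above abdominal, just inside the 2-fold limit, and a dimmer probe set present on the virgin array alone, at 88.6, was at least 3.16-fold below that on the abdominal array. *Itgax*, the αX chain of dendritic cells, was present on the virgin array at 81.5 and on the dorsal array at 54.9, and not with PP2, at 34.3, or on the abdominal array, at 55.9.

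Leukocyte markers ran alongside. The summed signal of 11 genes of all leukocytes was 3069 on the virgin, 1693 on the PP2, 991 on the dorsal and 1668 on the abdominal array, with 9, 9, 5 and 9 of the 11 present. *Ptprc*, which encodes CD45, gave 491, 159, 85.3 and 174 and was present on all arrays, so virgin skin was the high and dorsal skin the low sample, as for *Itgb2*. Of these markers 2 were called lower on the abdominal than on the virgin array, *Ptprc* and *Laptm5*, and 5 higher than on the dorsal array, *Ptprc*, *Laptm5*, *Tyrobp*, *Fcer1g* and *Cd53*. The shares of all genes with these calls were 3.55% and 5.25%. The part of leukocyte number in the *Itgb2* and *Itgae* values was not tested.

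*Itgal* and *Itgam*, the α chains of lymphocytes and of myeloid cells that pair with β2, were not present on any array, with signals of 4.50 to 53.6 and 3.44 to 6.60. *Itgb7*, the partner of αE, was not present either, at 15.2 to 20.3, although *Itgae* was present on all 4 arrays. *Itga4*, which pairs with β1 or β7 and binds VCAM-1, gave 160, 219, 157 and 270 on the virgin, PP2, dorsal and abdominal arrays, 1.73-fold higher on the abdominal than on the dorsal array. *Itga2b*, the αIIb chain of platelets, gave 317, 381, 326 and 465 in the same order, and was highest on the abdominal array. Of 6 platelet markers, *Pf4*, a chemokine, gave 863, 382, 152 and 384, and *Ppbp*, another, was present with PP2 at 28.6 and on the abdominal array at 44.8, and not on the virgin and dorsal arrays, at 36.1 and 17.4. *Gp1bb*, a platelet glycoprotein gene, gave 95.6, 96.6, 380 and 81.6, and the glycoprotein genes *Gp9*, *Gp5* and *Gp6* were present on 0 arrays. These markers had 3 different high arrays.

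The laminins of mesenchymal and vascular basement membranes had median log2 ratios of -0.08 against virgin and 0.00 against PP2 and dorsal. *Lamb2*, the β2 chain of vascular, synaptic and muscle laminins, was the exception, with 1152 on the virgin, 546 on the PP2, 1314 on the dorsal and 1394 on the abdominal array. The PP2 array alone was low, and the abdominal signal was 2.55-fold above it (log2 1.35), 1.21-fold above virgin and 1.06-fold above dorsal. *Lamb1*, the more widespread β chain, differed least of the members present throughout by representative probe sets, with 4743, 4173, 3817 and 4083 on the virgin, PP2, dorsal and abdominal arrays. *Lamc1*, the γ chain common to most laminins, gave 695, 988, 766 and 725 in that order and was highest with PP2, 1.36-fold above abdominal.

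*Lama2*, the α chain of muscle and Schwann cell laminins, gave 1576 on the virgin, 2490 on the PP2, 2241 on the dorsal and 1823 on the abdominal array, with PP2 the highest. *Lama4*, the endothelial α chain, gave 2001, 1523, 1281 and 1655 in the same order and was highest on the virgin array. *Lamc3*, a γ chain of nerve and of the dermal-epidermal junction, gave 467, 298, 481 and 306, with the virgin array 1.53-fold and the dorsal array 1.57-fold above the abdominal. By these probe sets the 3 genes stayed under 2-fold in each comparison. A dimmer probe set of *Lama4*, present on all 4 arrays at 260, 89.7, 191 and 223 in the same order, was lowest with PP2 and 2.49-fold higher on the abdominal array.

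The probe sets of a gene differed most in the comparison with PP2. Of 13 genes with several detected probe sets, 5 had ratios of both signs there (*Itgav*, *Itgb1*, *Itgb5*, *Lamb1* and *Lamc1*), against 2 of 14 in the comparison with virgin (*Itgb1* and *Lamb1*) and 1 of 13 with dorsal (*Itga6*). For *Lamb1*, a dim probe set gave 182 on the virgin, 129 on the dorsal and 214 on the abdominal array and was not present with PP2, at 38.4, at least 5.56-fold below abdominal. For *Lamc1*, a dim probe set gave 213 on the dorsal and 207 on the abdominal array and was not present on the virgin array, at 128, or with PP2, at 11.3, at least 18.3-fold below abdominal. Their bright probe sets differed from PP2 by 1.02-fold and 1.36-fold, with PP2 the higher. The PP2 array had the highest *Gapdh* 3′ to 5′ ratio (5.84) but an *Actb* ratio (2.70) near that of virgin and below that of dorsal, and the part of RNA quality in the probe sets that were low there was not tested.

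**Figure D4:**
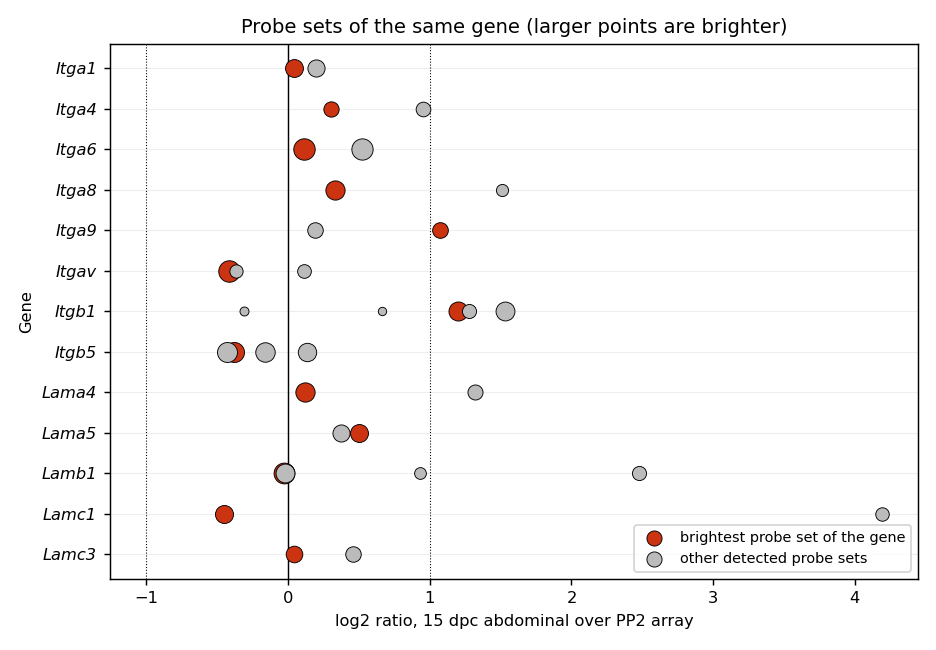
Log2 ratio of the abdominal over the PP2 signal for each detected probe set of members that have several, one row per gene. The probe sets of *Lamc1* and *Lamb1* lie on both sides of 0, and 8 of the 13 genes had all their ratios on 1 side.

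The 250 bases before the transcription start are shown for 4 of the 5 members called higher than with PP2, since these were the largest set called together. They are from the RefSeq promoter table (GRCm38.p6), which held 25 promoters of 22 of the 34 genes, each from 250 bases before to 50 after a start. The AP-1 motif TGANTCA and the core GAGGAA of PU.1, a transcription factor of leukocytes, were searched on both strands, and the motifs do not overlap each other in these sequences. Capitals mark GAGGAA or its reverse complement. *Itga9* lies at chr9:118711442-118711691, *Itgb1* at chr8:128685404-128685653, *Lamb2* at chr9:108479612-108479861 and *Lamb3* (the first of 2 starts) at chr1:193301744-193301993, all on the plus strand and printed 5′ to 3′.
Itga9: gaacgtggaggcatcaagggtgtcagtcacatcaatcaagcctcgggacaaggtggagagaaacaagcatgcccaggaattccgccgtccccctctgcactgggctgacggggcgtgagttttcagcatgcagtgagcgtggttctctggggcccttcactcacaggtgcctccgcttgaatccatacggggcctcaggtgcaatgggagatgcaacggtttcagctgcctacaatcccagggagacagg
Itgb1: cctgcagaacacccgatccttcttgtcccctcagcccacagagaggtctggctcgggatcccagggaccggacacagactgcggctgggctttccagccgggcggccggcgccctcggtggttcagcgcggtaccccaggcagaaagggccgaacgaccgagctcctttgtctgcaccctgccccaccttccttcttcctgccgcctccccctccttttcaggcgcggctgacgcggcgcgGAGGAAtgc
Lamb2: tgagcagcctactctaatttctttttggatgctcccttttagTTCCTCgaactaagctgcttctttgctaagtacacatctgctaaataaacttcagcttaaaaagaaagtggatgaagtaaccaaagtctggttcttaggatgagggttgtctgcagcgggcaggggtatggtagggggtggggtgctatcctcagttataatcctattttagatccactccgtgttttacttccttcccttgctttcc
Lamb3: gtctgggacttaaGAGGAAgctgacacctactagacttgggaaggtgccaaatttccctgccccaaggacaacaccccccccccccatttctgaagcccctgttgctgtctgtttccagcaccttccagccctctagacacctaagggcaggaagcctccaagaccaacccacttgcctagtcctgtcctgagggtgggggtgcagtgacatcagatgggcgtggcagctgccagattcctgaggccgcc

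The 4 sequences shared neither motif. GAGGAA began 9 bases before the start of *Itgb1*, 208 before that of *Lamb2* and 237 before that of *Lamb3*, and was not in the window of *Itga9*, which held AP-1 38 bases after its start. Over all members GAGGAA was in 13 of 25 promoters (52.0%) and in 28.3% of the 32851 promoters of the table, and AP-1 in 3 of 25 (12.0%) and in 7.81%. A match describes the letters of the window and no binding was measured.

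Partners of these receptors inside and outside the cell were described from gene lists. For comparison with the counts below, 3.41% of all genes were called higher and 3.55% lower on the abdominal than on the virgin array. The shares were 4.89% and 3.74% against PP2, and 5.25% and 4.96% against dorsal. Of 25 detected integrin adaptors and signalling genes, 1 was called higher on the abdominal than on the virgin array (*Ptk2b*) and 0 lower, 2 higher (*Tln1* and *Fermt3*) and 1 lower (*Tns3*) than with PP2, and 0 higher and 1 lower (*Tns3*) than on the dorsal array. *Tln1*, the talin that ties β chains to actin, gave 633 on the virgin, 259 on the PP2, 890 on the dorsal and 831 on the abdominal array, and was 3.21-fold below abdominal with PP2, the array on which *Itgb1* was lowest too. *Fermt3*, the kindlin of blood cells, gave 234, 159, 380 and 385 in the same order. *Tns3*, a tensin of focal adhesions, gave 2759, 4265, 4176 and 2052, and *Ptk2b*, a kinase related to the focal adhesion kinase, 105, 169, 126 and 233. *Src* itself, a target of PP2 named after its values were seen, gave 609, 606, 590 and 341 and was lowest on the abdominal array, as *Itga5* was, and within 2-fold.

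Ligands differed most between abdominal and dorsal skin. Of 14 detected ligand genes other than laminins, 4 were called higher on the abdominal than on the dorsal array (*Fn1*, *Vcam1*, *Npnt* and *Col1a1*) and 0 lower, beside 5.25% and 4.96% of all genes. *Fn1*, fibronectin, gave 3743 on the virgin, 4069 on the PP2, 933 on the dorsal and 3720 on the abdominal array, and *Npnt*, nephronectin, 603, 1393, 249 and 903. The dorsal array was thus the low one for nephronectin and for its receptor chain *Itga8*, while fibronectin was low in dorsal skin and its receptor chain *Itga5* was not. *Vcam1*, bound by α4β1 and α9β1, gave 423, 358, 127 and 444. *Col1a1*, a collagen I chain, gave 4844, 6630, 3344 and 11530, 2.38-fold higher on the abdominal than on the virgin array. *Col1a2*, the other collagen I chain, named after its values were seen, gave 25696, 19808, 22238 and 25489. Its log2 ratio was -0.01 against virgin and 0.20 against dorsal, so the 2 chains did not move together.

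Against virgin, 1 ligand of 13 was called higher (*Col1a1*) and 1 lower, and against PP2 0 of 13 were higher and 1 lower. The lower gene in both was *Tnc*, tenascin-C, named after its values were seen, with 1192 on the virgin, 1173 on the PP2, 1072 on the dorsal and 543 on the abdominal array. The abdominal array stood apart from the other 3, as for *Itga5*.

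Of 13 detected basement membrane partners, 1 was called higher on the abdominal than on the virgin array (*Col4a6*), 1 lower than with PP2 (*Nid2*) and 1 lower than on the dorsal array (*Ntn4*), and 0 in the other directions. *Ntn4*, a netrin with laminin-like domains that binds laminin γ chains, gave 1703 on the virgin, 2883 on the PP2, 6686 on the dorsal and 2569 on the abdominal array. *Nid2*, a nidogen that links laminin to collagen IV, gave 223, 534, 253 and 235, and was high with PP2 alone. *Col4a6* gave 116, 136, 209 and 237 and *Col4a4* 76.0, 107, 203 and 152, both collagen IV chains with their lowest signal in virgin skin, as for *Lama3*.

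Of 9 detected laminin receptors other than integrins, 1 was called, *Bcam*, whose product binds laminin α5. It gave 457 on the virgin, 308 on the dorsal and 508 on the abdominal array and was not present with PP2, at 71.9, at least 7.06-fold below abdominal. *Dag1*, dystroglycan, gave 4573, 5309, 6770 and 6465 on the virgin, PP2, dorsal and abdominal arrays, *Sdc4*, a syndecan of focal adhesions, 6071, 4859, 9651 and 6427, and *Sgcd*, a sarcoglycan, 62.3, 69.3, 73.8 and 48.2. These 3 genes stayed within 2-fold of the abdominal array.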

How the data were processed

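RNA of dermal cells from 4 conditions was hybridised to 4 Affymetrix mouse arrays. The authors deposited a signal and a detection call for each probe set, a linear intensity that the MAS5 algorithm of Affymetrix Expression Console (version 1, per the submitters' processing notes) summarises and scales to a common trimmed mean. The scaling makes each value relative to the rest of its array. A table of all arrays held the same signals, with 0 differing probe sets. Annotation of the platform gave the symbols. Probe sets with several symbols (932) and controls (64) were left out, and the 73 of the members matched GRCm38.p6 by Entrez identifier with 0 symbols changed. No coordinates are given for probe sets, since the sources used here give no build for them.

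Each gene was represented by its brightest probe set (mean log2 signal over the arrays). A ratio above 2 with a present call on the brighter array was called, among genes present on at least 1 of the 2 arrays. Against an array with no present call, the fold was taken over the higher of the signal there and the dimmest present signal there (10.7 on the virgin, 3.96 on the PP2, 9.36 on the dorsal and 6.57 on the abdominal array). All members are named. Of each pathway list, up to 4 genes with the largest log2 ratio among those present on both arrays are named. Cell type markers given with signals were chosen after their values were seen. Members and lists were chosen with earlier results of these data known. The number of arrays, 1 per condition, limits the precision, and no error or p-value was computed. The calling script was tested on simulated data. Alternatives were other ratios, scalings, a signal floor of 50 and other choices of probe set. Python 3.11.15 with pandas 2.3.3, numpy 2.4.6 and matplotlib 3.10.9 was used.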

Additional observations from a re-analysis of the deposited data

How the results depend on the processing

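The share of all genes was computed for the main rule alone, so the counts of members in this paragraph cannot be set beside it. With a ratio of 1.5 in place of 2, 9 members were higher and 6 lower on the abdominal than on the virgin array. In the dorsal comparison that ratio gave 6 higher and 3 lower. With a ratio of 3, 1 member was higher in each of the comparisons with virgin, PP2 and dorsal, and 0 were lower than on the virgin or PP2 array. When any detected probe set could carry the call, 9 members were higher than with PP2, 2 were lower than on the virgin array and 1 was lower than on the dorsal array. When every detected probe set had to pass, 3 were higher than with PP2. Without probe sets whose names carry the suffix for shared or mixed probes, 2 were lower than on the virgin array, with *Itgae* at a log2 ratio of -1.66. A signal floor of 50 left 1 member higher than on the dorsal array. Over members present on both arrays, an alternative chosen after seeing the data, 1 was higher than on the virgin and 1 higher than on the dorsal array. One median for all arrays, also chosen later for this count, made the PP2 array the highest for 7 members.

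The scalings moved the median of all probe sets present on the abdominal and PP2 arrays from 0.05 to -0.06 on the log2 scale. The median ratio over the members stayed above 0 under the alternatives run. The log2 ratio of each member was recomputed under the scalings, the floor and, where detected, other probe sets. Of these recomputed ratios, 2 of 107 against virgin, 4 of 102 against PP2 and 2 of 105 against dorsal moved by more than 1.5-fold. 0 of the called ones changed sign, but most came from the scalings or the floor. A floor cannot change a sign and the scalings shifted the median little, so these counts say little about the choice of probe set. Several probe sets entered by their median, which hides a single one of opposite sign, as for *Itgb1* against PP2. No paired analysis was possible because each condition had 1 array, and for the same reason leaving out an array was not an option. Dim probe sets limit the values of *Lama1* and *Itgb2*, and the choice of probe set or the scaling those of *Itga9*, *Itgb1* and *Lama4*. The values of *Itga5* rest on its representative probe set alone.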
